A study of Mus musculus with 8 samples.

Results

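The nuclear genes for the subunits of oxidative phosphorylation were followed in stromal cells sorted from mouse colons. Members were all gene symbols of the deposited tables that begin with Nduf and a subunit letter and number, Sdh and a letter from a to d, Uqcr, Cox4 to Cox8 with a subunit letter, or Atp5. This gave 84 of 24346 symbols, of which 37 belong to complex I, 4 to complex II, 8 to complex III, 18 to complex IV and 17 to complex V. The 4 cKO mice carried floxed Il10ra alleles (Il10ra flox/flox) and a Cre recombinase driven by Pdgfra, a receptor gene of fibroblasts, while the 4 mice called WT carried the same floxed alleles without Cre. All 8 mice were 12 weeks old, and each library is 1 mouse per the design text. Il10ra encodes the receptor chain that binds interleukin-10, and the series' title asks how this receptor acts in fibroblasts. The sort kept live cells with podoplanin and without CD45, CD31 or EpCAM. Deletion was therefore limited to cells that express, or descend from cells that expressed, Pdgfra, and the WT group does not control for Cre itself.

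Oxidative phosphorylation takes place in the inner mitochondrial membrane. Complexes I and II feed electrons from NADH and succinate into ubiquinone, complex III passes them to cytochrome c, complex IV reduces oxygen, and complex V uses the resulting proton gradient to make ATP. Most subunits are made from nuclear genes, whereas a small hydrophobic set is encoded in mitochondrial DNA and was not analysed here. Several complex IV subunits have tissue isoforms made from separate genes, with muscle and testis forms beside a common form. Nuclear respiratory factor 1 (NRF1), ETS family factors such as GABP, and YY1 are known regulators of these genes. The symbol rule also caught Atp5s and Atp5sl, which encode a coupling factor and a complex I assembly protein outside the ATP synthase. It left out Cyc1, the cytochrome c1 subunit of complex III, and it counts Ndufa4 under complex I although that protein is now often assigned to complex IV.

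Promoter windows of 300 bases (250 before to 50 after the start, RefSeq, GRCm38.p6) were found for 70 of the 84 members and searched on both strands for GCGCANGCG (NRF1, N being any base), CCGGAAG (ETS) and AAGATGGCG (YY1). The letters AAG that end the ETS motif can be shared with the start of the YY1 motif. Shares are given over the 70 members and over the 8754 genes that had both a window and enough signal to be tested. The NRF1 motif was found for 28.6% of these members and 15.8% of these genes, the ETS motif for 22.9% and 20.7%, and the YY1 motif for 11.4% and 3.86%. At least 1 of the motifs was found for 36 of the 70 members (51.4%) and 35.0% of the 8754 genes. A match describes letters and is not a binding site. The windows below show 1 described member with a match from each complex, followed by a pair of isoform genes of which only the common form has one. Atp5j has a second window (chr16:84835576-84835875, minus strand) with no match, which is not shown. The windows shown were chosen after the matches were seen, and capitals mark the motifs on either strand.
Ndufs3 (core subunit of complex I, chr2:90904672-90904971, minus strand, an ETS match on each strand): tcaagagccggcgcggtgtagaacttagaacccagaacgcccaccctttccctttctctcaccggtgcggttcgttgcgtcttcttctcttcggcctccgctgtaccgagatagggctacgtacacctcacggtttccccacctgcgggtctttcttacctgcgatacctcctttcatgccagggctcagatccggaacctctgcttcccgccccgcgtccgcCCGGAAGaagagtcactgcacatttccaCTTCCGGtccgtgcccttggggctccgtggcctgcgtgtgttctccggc
Sdhd (membrane anchor of complex II, chr9:50603800-50604099, minus strand, NRF1 and ETS): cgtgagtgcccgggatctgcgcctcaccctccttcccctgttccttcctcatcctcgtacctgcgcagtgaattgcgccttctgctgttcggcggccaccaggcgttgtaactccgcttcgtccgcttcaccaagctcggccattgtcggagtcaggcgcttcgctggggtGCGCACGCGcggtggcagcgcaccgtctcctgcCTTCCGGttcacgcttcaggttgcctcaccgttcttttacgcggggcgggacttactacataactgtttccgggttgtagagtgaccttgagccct
Uqcrh (hinge subunit of complex III, chr4:116075021-116075320, minus strand, ETS): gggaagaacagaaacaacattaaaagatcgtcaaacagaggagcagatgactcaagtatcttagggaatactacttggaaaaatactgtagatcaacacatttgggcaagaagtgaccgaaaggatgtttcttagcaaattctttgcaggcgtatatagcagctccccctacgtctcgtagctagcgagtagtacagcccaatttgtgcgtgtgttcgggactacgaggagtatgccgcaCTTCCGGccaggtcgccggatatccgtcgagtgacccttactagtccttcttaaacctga
Cox6a1 (common form in complex IV, chr5:115348909-115349208, minus strand, NRF1 matches in 2 places and 1 ETS match): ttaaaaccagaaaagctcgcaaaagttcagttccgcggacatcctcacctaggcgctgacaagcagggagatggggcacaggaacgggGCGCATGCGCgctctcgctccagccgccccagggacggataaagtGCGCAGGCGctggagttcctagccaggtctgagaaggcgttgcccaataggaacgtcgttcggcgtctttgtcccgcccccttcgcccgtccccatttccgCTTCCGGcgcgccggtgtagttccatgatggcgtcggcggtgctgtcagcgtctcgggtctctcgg
Atp5j (coupling factor 6 of complex V, chr16:84834927-84835226, minus strand, YY1 and ETS): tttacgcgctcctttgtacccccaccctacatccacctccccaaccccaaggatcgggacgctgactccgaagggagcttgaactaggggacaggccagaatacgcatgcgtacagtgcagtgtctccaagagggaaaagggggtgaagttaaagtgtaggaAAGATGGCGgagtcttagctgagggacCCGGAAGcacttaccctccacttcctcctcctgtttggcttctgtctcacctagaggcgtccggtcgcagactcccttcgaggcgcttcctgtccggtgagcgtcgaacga
Cox6b1 (common form, chr7:30626065-30626364, minus strand, ETS): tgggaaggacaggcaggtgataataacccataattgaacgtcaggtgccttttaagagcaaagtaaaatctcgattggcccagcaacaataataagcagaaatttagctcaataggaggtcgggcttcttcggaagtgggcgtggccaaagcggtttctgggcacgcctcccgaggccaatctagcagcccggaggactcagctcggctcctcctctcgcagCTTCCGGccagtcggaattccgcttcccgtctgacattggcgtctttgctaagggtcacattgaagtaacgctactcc
Cox6b2 (testis form, chr7:4753045-4753344, minus strand, no match): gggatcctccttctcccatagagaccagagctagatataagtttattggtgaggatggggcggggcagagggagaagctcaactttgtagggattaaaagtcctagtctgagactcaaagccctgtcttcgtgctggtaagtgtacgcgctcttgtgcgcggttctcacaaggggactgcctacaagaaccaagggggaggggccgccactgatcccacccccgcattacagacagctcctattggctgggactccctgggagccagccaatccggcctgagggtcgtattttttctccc

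The values are FPKM, fragment numbers corrected for transcript length and library size, so levels of different genes are compared per length. Differences were tested with limma on log2(FPKM + 1) over 11506 genes with a mean of at least 1 FPKM, with Benjamini-Hochberg adjustment over all of them. Genes above 0 FPKM numbered 15815 to 16323 per library, the read-out of relative depth ran from 0.869 to 1.10 of that in WT 1, and correlations between libraries ran from 0.965 to 0.989. Fibroblast markers were high in all libraries, with summed values of 18460 to 22414 FPKM in cKO libraries and 20243 to 21212 FPKM in WT libraries. The lowest sum was that of cKO 1. Pdgfra was at 126, 163, 167 and 163 FPKM in cKO 1 to 4 and 158, 161, 157 and 157 FPKM in WT 1 to 4. Other fibroblast markers differed: Thy1 was highest in cKO 1, and Col1a1, Col1a2 and Col3a1 were lowest in cKO 4. Il10ra was at 0.273 to 0.636 FPKM in cKO libraries and 0.403 to 0.842 FPKM in WT libraries, and as the floxed part is not named, these values do not check the genotype. Epithelial markers, which the sort should remove, stood apart in cKO 1. The mean log2 value of the 16 epithelial markers was 5.33, 4.10, 2.54 and 1.65 in cKO 1 to 4, and 2.69, 2.45, 1.87 and 2.60 in WT 1 to 4. All 16 had a higher mean in cKO libraries, none was at 0 in any library, and their summed level ran from 52.9 to 1123 FPKM in cKO libraries and from 65.6 to 144 FPKM in WT libraries.

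Most members were abundant. The 80 members that passed the filter had a median of 115 FPKM, against 9.66 FPKM over all tested genes, and 60 of them lay in the top 10% of tested genes. All members of complexes I, II, III and V passed, and 14 of 18 did in complex IV. The median was 98.5 FPKM in complex I, 88.2 FPKM in complex II, 166 FPKM in complex III, 131 FPKM among the 14 complex IV genes and 161 FPKM in complex V. Within complex I, the 7 core subunits that carry the redox centres and the quinone site had a median of 57.9 FPKM, and the 30 accessory subunits 99.5 FPKM. In complex III the 5 small subunits had a median of 187 FPKM, while the catalytic Rieske protein gene Uqcrfs1 averaged 45.4 FPKM. The highest member was Cox4i1 at 365 FPKM. Gm20388 overlaps it by 5986 bases on the same strand, so fragments of Cox4i1 may be shared. The median SD of a member over the 8 libraries was 0.119 on the log2 scale, against 0.130 over all tested genes. Among tested genes of at least 50 FPKM, a level that 66 members reached, the median SD was lower, at 0.0933. Sdha varied least (SD 0.0421) and Cox7a1 most (SD 0.801).

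Between cKO and WT stromal cells no member passed the test. Of the 80 tested members 0 were called in limma at an adjusted p under 0.05, with 0.00869% of all tested genes called (1 gene, which is no member), and the smallest adjusted p of a member was 0.897. At an unadjusted p under 0.05 limma gave 2 members higher and 3 members lower in cKO, while 5.41% of all tested genes passed that rule, 2.37% higher and 3.03% lower. On the log2(FPKM + 1) scale, which all counts of higher and lower means use here, the mean was higher in cKO for 27 members and lower for 53, with a median difference of -0.03 on the log2 scale. Over all tested genes the median was -0.01 and 52.6% had a fitted difference below 0. By longest coding transcript, 71.1% of the 45 members under 1000 bases were lower, with a median of -0.04. Of the 515 other tested genes that short, 60.2% were lower, also with a median of -0.04. Among longer genes, 60% of the 35 members and 52.3% of the 10188 others were lower, both with a median of -0.01. The split of 27 and 53 members depended on the scaling: with quantile normalization, or with all libraries set to the same FPKM sum, 42 members were higher and 38 lower, with medians of 0.00 and 0.01. The fixed sum moved the median of all tested genes to 0.03. In bulk samples, fewer cells of a type and less RNA per cell cannot be told apart.

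Most members had their highest value in the same cKO library. Summed over the members, the cKO 1 to 4 libraries held 12138, 9974, 10453 and 9882 FPKM, and the WT 1 to 4 libraries 10363, 10883, 10826 and 11084 FPKM. The cKO 1 library was above every other library, and the other 3 cKO libraries lay at or below the low end of WT: cKO 3 exceeded WT 1 alone. The group means were 10612 ± 1048 FPKM in cKO and 10789 ± 305 FPKM in WT (SD, n = 4 each). As a share of all FPKM, the members made up 2.504%, 2.09%, 2.17% and 2.13% in cKO 1 to 4, and 2.11%, 2.21%, 2.23% and 2.27% in WT 1 to 4. The highest of the 8 values fell in cKO 1 for 48 of 80 members (60%), against 17.5% of all tested genes. The lowest fell in cKO 4 for 32 members (40%, against 13.7% of all tested genes) and in cKO 2 for 24 members (30%, against 13.3%).

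**Figure D1:**
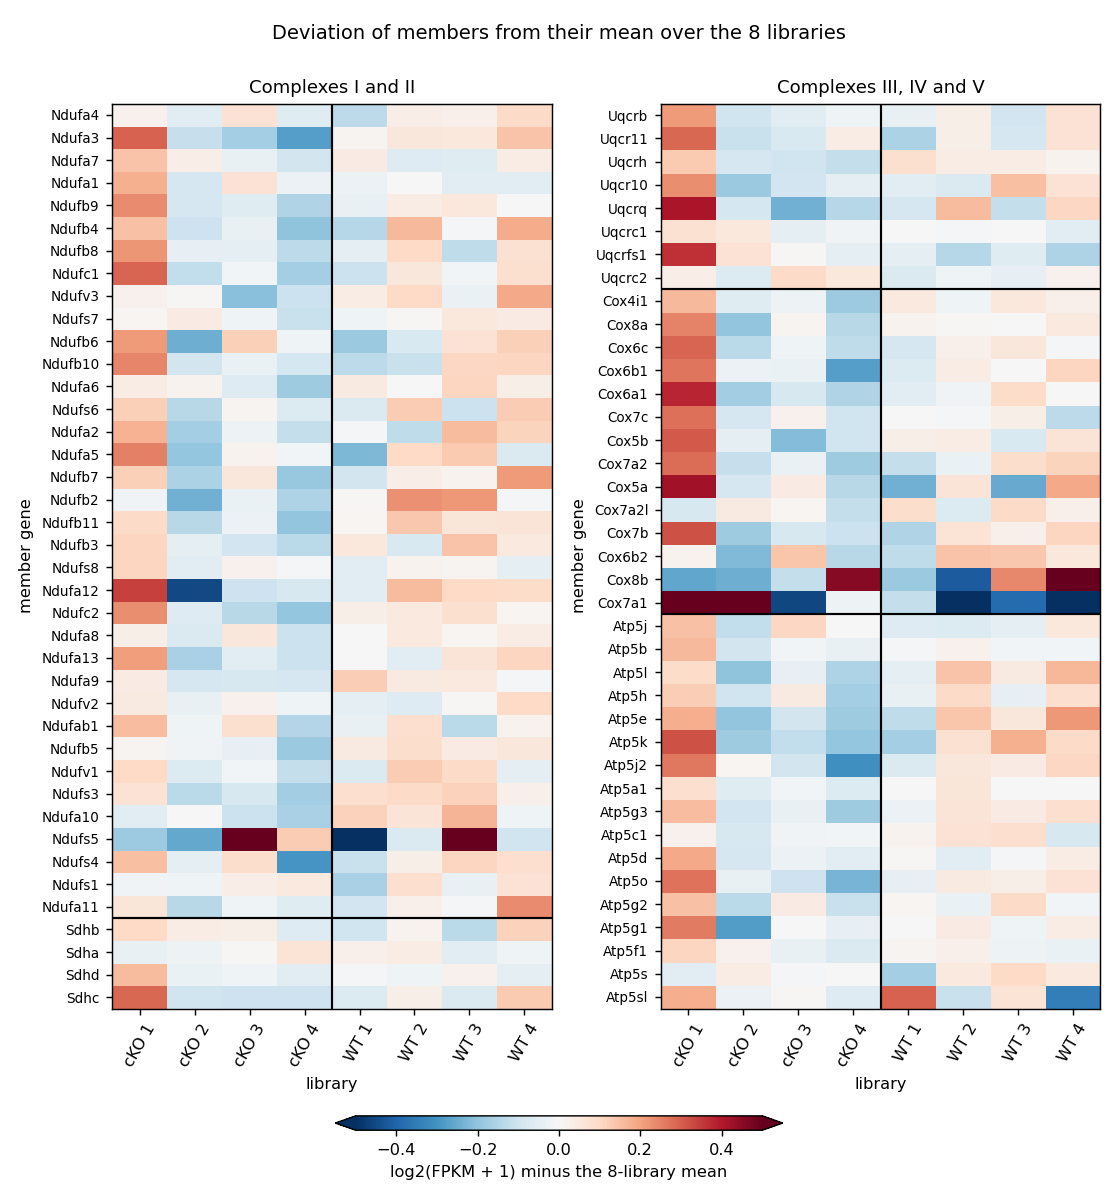
Deviation of log2(FPKM + 1) from the 8-library mean for the tested members (vertical axis, grouped by complex and ordered by level) in each library (horizontal axis, cKO left of WT); the colour scale is in log2 units and stops at 0.5 on either side. The cKO 1 column is the highest of its line for 48 members, most often in complexes III, IV and V, and the cKO 2 and cKO 4 columns hold the lowest value for 24 and 32 members.

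The high values of cKO 1 were spread unevenly over the complexes. That library held the highest value for 16 of 37 members of complex I, 2 of 4 of complex II, 7 of 8 of complex III, 11 of the 14 tested of complex IV and 12 of 17 of complex V. Its median deviation from the 8-library mean was 0.11 in complex I, 0.13 in complex II, 0.22 in complex III, 0.28 in complex IV and 0.15 in complex V, on the log2 scale. Members with short transcripts stood out more. The median longest coding transcript was 892 bases for members and 3089 bases for all tested genes. In cKO 1 the 45 members under 1000 bases had a median deviation of 0.18 and the 35 longer members 0.10. The 515 other tested genes under 1000 bases had a median of 0.09 there and the 10188 longer genes -0.02. In cKO 4 the medians were -0.13 for short and -0.07 for longer members, and -0.11 and 0.01 for the other genes. In cKO 2 they were -0.10 and -0.05 for members, and -0.04 and 0.00 for the other genes. The part of transcript length in the pattern was not tested.

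**Figure D2:**
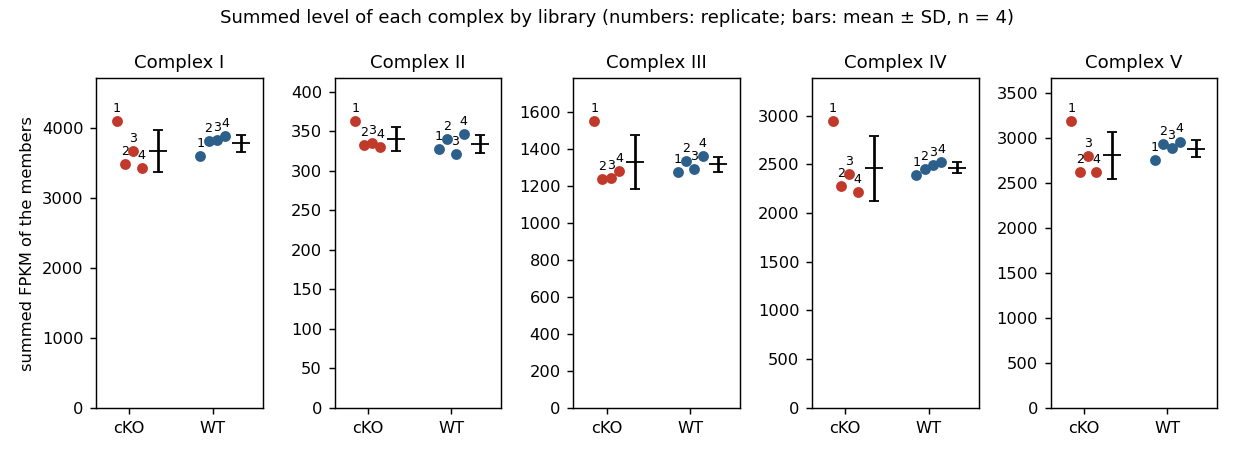
Summed FPKM of the members of each complex (vertical axes from 0) in each library, with cKO in red left of WT in blue; numbers are replicates and bars give the mean ± SD (n = 4 each). In every complex cKO 1 is the highest library, at 1547 FPKM in complex III and 2940 FPKM in complex IV, while cKO 2, 3 and 4 lie within or below the range of the 4 WT libraries.

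Without cKO 1, the remaining 3 cKO libraries had lower means than WT in most members, and still no member passed. In limma 0 of 80 members were called, with 0.035% of all tested genes called (4 genes, none a member), and the smallest adjusted p of a member was 0.385. At an unadjusted p under 0.05, 22 members were lower and 0 were higher in cKO, against 6.75% of all tested genes, 4.14% lower and 2.61% higher. The mean was lower for 67 members and higher for 13, with a median of -0.10. Over all tested genes the median was 0.00 and 50.3% had a fitted difference below 0. The direction was kept under the fixed sum and under quantile normalization, where 55 members were lower and 25 higher without cKO 1, with medians of -0.05 and -0.04 and 9 and 8 members lower at an unadjusted p under 0.05. With the epithelial marker mean as a covariate and all 8 libraries kept, 63 members were lower and 17 higher, with a median of -0.09 and 16 lower at an unadjusted p under 0.05. The covariate was highest in cKO 1, so this fit is not independent of leaving that library out. With both cKO 1 and cKO 2 left out, the libraries with the highest epithelial marker means, 64 were lower and 16 higher, with a median of -0.08. Shares over all tested genes are not given here for the fits with other scalings, the covariate or both libraries left out. The member counts of those fits therefore stand without a background. For 16 of 80 members (20%) cKO 2, 3 and 4 all lay below all 4 WT libraries, against 4.24% of all tested genes, and for 1 member (1.25%) all above, against 3.20%. Of these 16, 10 belong to complex I (Ndufa3, Ndufa9, Ndufa12, Ndufa13, Ndufb2, Ndufb5, Ndufb9, Ndufb11, Ndufc2 and Ndufs3), and the others are Sdhc, Uqcrh, Cox4i1, Cox6a1, Atp5a1 and Atp5g3. Ndufa13, Ndufb2, Ndufb9 and Cox4i1 are each overlapped by another protein-coding gene on the same strand, so their fragments may be shared. The cKO 1 library was singled out after its values were seen. The members share the same libraries and are not independent. Their counts and shares, here and above, therefore do not measure an excess over all tested genes.

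**Figure D3:**
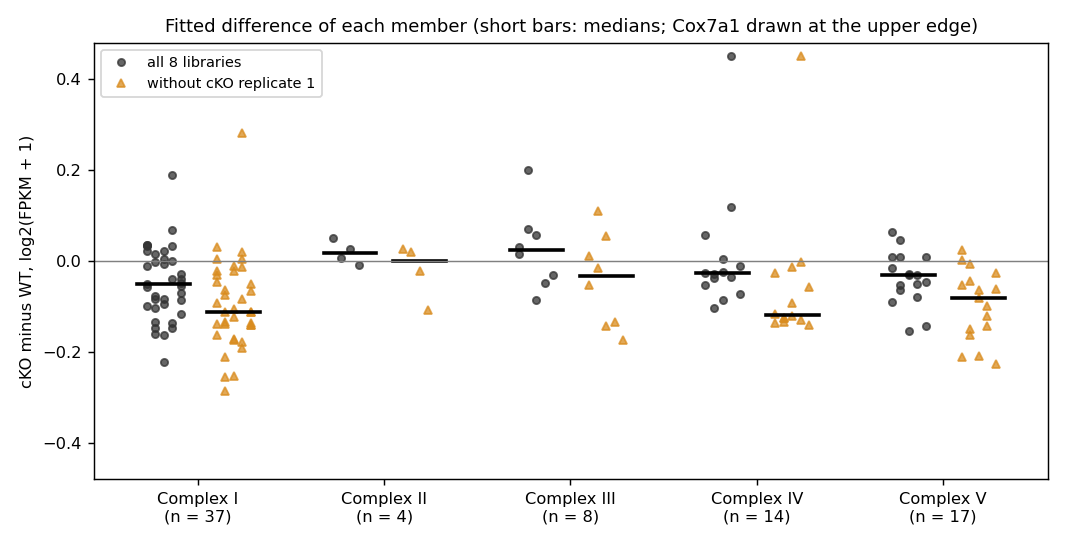
Fitted difference of each tested member, cKO minus WT on the log2(FPKM + 1) scale (vertical axis), by complex; circles use all 8 libraries, triangles leave out cKO 1, and short bars are medians. Without cKO 1 the median is -0.11 in place of -0.05 in complex I and -0.12 in place of -0.03 in complex IV; Cox7a1, at 0.96 and 0.62, is drawn at the upper edge.

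**Figure D4:**
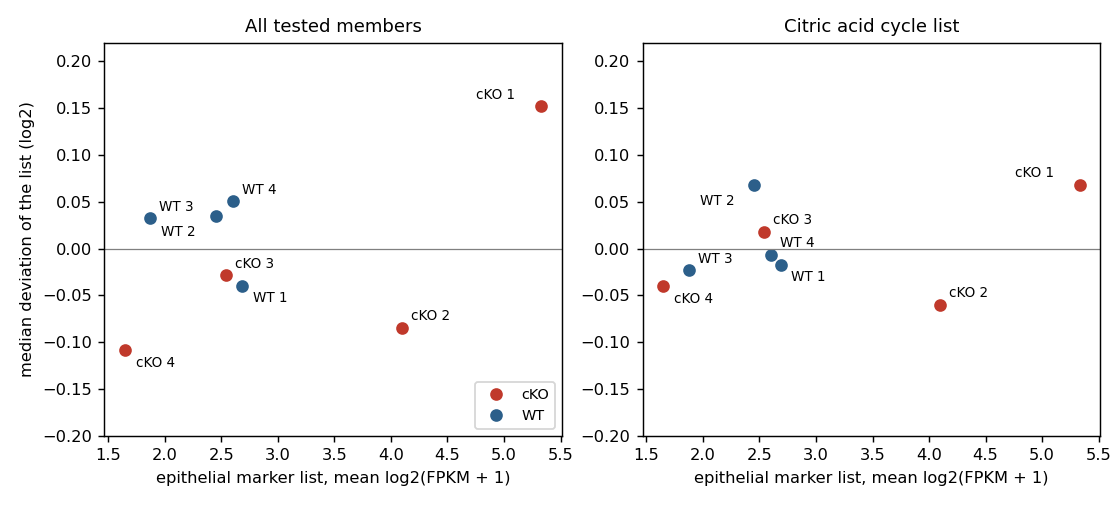
Median deviation of all tested members (left) and of the citric acid cycle list (right) from the 8-library mean, in log2 units, against the mean log2(FPKM + 1) of 16 epithelial markers in each library, with cKO in red and WT in blue. The cKO 1 library is highest on both axes of the left panel, whereas cKO 2, second in epithelial markers at 4.10, has a median deviation of -0.08.

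Epithelial markers and members were both highest in cKO 1, while cKO 2, next in epithelial markers, had the lowest value of 24 members. The median deviation of the members was 0.15, -0.08, -0.03 and -0.11 in cKO 1 to 4, and -0.04, 0.03, 0.03 and 0.05 in WT 1 to 4. Among the other marker lists, the summed myeloid level ran from 83.5 to 173 FPKM in cKO libraries and from 75.6 to 106 FPKM in WT libraries. For lymphoid markers the sums were 39.7 to 180 FPKM in cKO libraries and 52.9 to 93.8 FPKM in WT libraries. Smooth muscle markers summed to 90.02 to 138 FPKM in cKO libraries and 100.3 to 110 FPKM in WT libraries. Blood endothelial markers summed to 9.48 to 25.9 FPKM in cKO libraries, all above the 6.12 to 9.27 FPKM of WT libraries. Of the single blood endothelial markers only Emcn did not overlap between groups, with its lowest cKO value at 0.264 FPKM and its highest WT value at 0.253 FPKM. Lymphatic endothelial markers summed to 6.18 to 15.3 FPKM in cKO libraries, also all above the 0.712 to 5.47 FPKM of WT libraries. Most of the cKO sums came from Ccl21a, at 11.9, 4.81, 7.20 and 7.63 FPKM in cKO 1 to 4. In WT 1 to 4 Ccl21a was at 0.00033, 0.0017, 4.49 and 0.00061 FPKM. Of the other lymphatic markers, Lyve1 and Prox1 overlapped between groups, while Flt4, Mmrn1 and Reln were higher in all cKO libraries. Glial and neuronal markers summed to 3.66 to 5.23 FPKM in cKO libraries and 3.897 to 4.19 FPKM in WT libraries. The highest sum fell in cKO 1 for each of these lists. The neuronal marker Elavl4 was listed at 0 in all libraries, and Lmod1 and Sox10 in 1 and 2 of them. Beyond the epithelial covariate, the part of these cells in the member values was not tested.

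Complex I takes electrons from NADH. Of its 37 members 10 had a higher and 27 a lower mean in cKO, with a median of -0.05 (at an unadjusted p under 0.05, 0 higher and 3 lower). The core subunits had a median of -0.00 with 3 higher and 4 lower, and the accessory subunits -0.06 with 7 higher and 23 lower. Under quantile normalization 15 members of complex I were higher and 22 lower.

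Ndufb2, an accessory subunit of the membrane arm (chr6:39592574-39603382, plus strand), had the lowest fitted difference of all members. It was at 97.0, 83.0, 96.0 and 88.0 FPKM in cKO 1 to 4 and at 98.5, 115, 114 and 97.5 FPKM in WT 1 to 4. All cKO libraries lay below all WT libraries, with cKO 1 and WT 4 almost touching. The difference was -0.22 (SE 0.08, adjusted p = 0.897 in limma). Ndufb5, another membrane arm subunit (chr3:32736990-32751566, plus strand), also had groups that did not overlap. It was at 52.1, 50.8, 50.02 and 45.2 FPKM in cKO libraries and 53.1, 54.9, 53.1 and 53.7 FPKM in WT libraries, with a difference of -0.12 (SE 0.05, adjusted p = 0.897 in limma). These were the only 2 members with all cKO values below all WT values, a pattern held by 1.9% of all tested genes. Both genes overlap others on the opposite strand (Braf and Gm16272 for Ndufb2, Mrpl47 for Ndufb5), and Ndufb2 overlaps Gm42420 on its own strand, so their fragments may be shared.

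Ndufs3, a core subunit of the arm that reaches into the matrix (chr2:90894634-90904827, minus strand), was at 51.4, 44.4, 46.1 and 43.1 FPKM in cKO 1 to 4 and 51.9, 52.2, 52.9 and 49.7 FPKM in WT 1 to 4. The cKO 1 value fell inside the WT range and the other 3 lay below it. The difference was -0.16 (SE 0.06, adjusted p = 0.897 in limma), and without cKO 1 it was -0.21 (SE 0.05, adjusted p = 0.429). Ndufa10, an accessory subunit related to nucleoside kinases (chr1:92439010-92473860, minus strand), was at 40.2, 41.9, 38.8 and 37.3 FPKM in cKO libraries and 45.4, 43.9, 47.2 and 41.2 FPKM in WT libraries. Here cKO 1 was not the highest cKO library, and only cKO 2 exceeded the lowest WT value. Its difference was -0.16 (SE 0.06, adjusted p = 0.897 in limma).

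Ndufa3, a small accessory subunit (chr7:3617373-3620327, plus strand), gave the smallest adjusted p once cKO 1 was left out. It was at 300, 225, 217 and 202 FPKM in cKO 1 to 4 and 246, 254, 254 and 270 FPKM in WT 1 to 4. The cKO 1 value was the highest of all and the other 3 were the lowest. The difference was -0.13 (SE 0.11, adjusted p = 0.929 in limma) with all libraries and -0.25 (SE 0.05, adjusted p = 0.385) without cKO 1. Ndufa12, an accessory subunit of the matrix arm, showed the same arrangement, with 101, 57.8, 73.9 and 75.1 FPKM in cKO libraries and 76.2, 88.8, 85.2 and 84.7 FPKM in WT libraries. Both were named after their values were seen. Ndufa4, the most abundant gene of this group (chr6:11900292-11907497, minus strand), was at 265, 251, 275 and 250.4 FPKM in cKO libraries and 239, 268, 266 and 279 FPKM in WT libraries, and the groups overlapped widely. Its difference was -0.01 (SE 0.06, adjusted p = 0.994 in limma). Ndufv1, the core subunit that holds the NADH site, averaged 49.98 ± 3.38 FPKM in cKO and 51.8 ± 3.69 FPKM in WT (SD, n = 4 each), a difference smaller than the spread between mice.

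Complex II is the succinate dehydrogenase of the citric acid cycle, the only complex made wholly from nuclear genes. Of its 4 members 3 had a higher and 1 a lower mean in cKO, with a median of 0.02. Sdha, the flavoprotein that oxidises succinate, was at 89.1, 89.8, 91.7 and 95.9 FPKM in cKO 1 to 4 and 93.0, 93.8, 87.8 and 89.99 FPKM in WT 1 to 4. It was the steadiest member, and its libraries of both groups were intermixed (difference 0.01, SE 0.05, adjusted p = 0.994 in limma). Sdhb, the iron-sulfur subunit (chr4:140961203-140979193, plus strand), was at 126, 121, 120.2 and 112 FPKM in cKO libraries and 110, 119, 107 and 128 FPKM in WT libraries (difference 0.05, SE 0.06, adjusted p = 0.963 in limma). The cKO values all lay inside the WT range.

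The membrane anchors of complex II differed from the soluble pair in cKO 1. Sdhc was at 52.3, 39.8, 39.6 and 39.7 FPKM in cKO 1 to 4 and 40.6, 43.6, 40.6 and 46.8 FPKM in WT 1 to 4. The cKO 1 value stood above all others, and the remaining 3 cKO values, nearly equal to each other, stood below all WT values. Sdhd (chr9:50596357-50603812, minus strand) was at 94.8, 82.8, 83.6 and 81.9 FPKM in cKO libraries and 84.4, 83.5, 86.1 and 82.3 FPKM in WT libraries. Again cKO 1 was highest, with the others in or just under the WT range. The fitted differences were -0.01 for Sdhc (SE 0.09) and 0.03 for Sdhd (SE 0.06), with adjusted p of 0.994 and 0.98 in limma, and without cKO 1 they were -0.11 and -0.02.

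Complex III hands electrons from ubiquinol to cytochrome c. Of its 8 members 5 had a higher and 3 a lower mean in cKO, with a median of 0.02, and without cKO 1 these counts were 3 and 5 with a median of -0.03. Uqcrfs1, the Rieske iron-sulfur protein that carries out the first electron transfer (chr13:30540308-30545362, minus strand), was at 58.4, 47.4, 45.3 and 43.703 FPKM in cKO 1 to 4 and 43.697, 40.7, 43.2 and 40.4 FPKM in WT 1 to 4. All cKO values lay above all WT values, with cKO 4 and WT 1 all but equal. It was the only member with this order, which 1.36% of all tested genes had. The difference was 0.20 (SE 0.09, adjusted p = 0.897 in limma), and it was 0.11 (SE 0.05, adjusted p = 0.774) without cKO 1 and 0.10 (SE 0.07) with the epithelial covariate.

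In the other members of complex III the groups overlapped. Uqcrh, the hinge protein that bridges cytochrome c1 and cytochrome c (chr4:116066965-116075071, minus strand), was at 204, 176, 174 and 171 FPKM in cKO 1 to 4 and 197, 191, 191 and 188 FPKM in WT 1 to 4. The cKO 1 value was above WT and the other 3 below it, with a difference of -0.09 (SE 0.06, adjusted p = 0.928 in limma) that was -0.14 (SE 0.04, adjusted p = 0.579) without cKO 1. Named pseudogenes of Uqcrh exist in the annotation, and its fragments may be shared with them. The core proteins Uqcrc1 and Uqcrc2 averaged 125 ± 5.08 and 37.2 ± 1.81 FPKM in cKO, and 122 ± 2.29 and 35.7 ± 1.01 FPKM in WT (SD, n = 4 each). Uqcrb, the most abundant member of the complex, was at 389, 313, 322 and 330.5 FPKM in cKO 1 to 4 and 328, 342, 314 and 353 FPKM in WT 1 to 4, so that cKO 1 stood above the rest.

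Complex IV transfers electrons to oxygen. Of its 14 tested members 4 had a higher and 10 a lower mean in cKO, with a median of -0.03, and without cKO 1 these counts were 1 and 13 with a median of -0.12. All 10 common forms had lower means in cKO without cKO 1, and in 3 of them the unadjusted p was under 0.05. Cox4i1, the common form of a regulatory subunit (chr8:120668222-120674207, plus strand), was at 408, 349, 358 and 321 FPKM in cKO 1 to 4 and 377, 359, 378 and 371 FPKM in WT 1 to 4. One cKO library stood above WT and 3 below it, and the difference was -0.05 (SE 0.07, adjusted p = 0.965 in limma). Cox6a1 (chr5:115345642-115348981, minus strand) was at 349, 237, 252 and 240.4 FPKM in cKO libraries and 258, 264, 285 and 268 FPKM in WT libraries, again with cKO 1 above and the rest below all WT libraries. Its difference was -0.01 (SE 0.11, adjusted p = 0.994 in limma) and -0.14 (SE 0.05, adjusted p = 0.645) without cKO 1.

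The tissue isoforms of complex IV were minor or near 0. Cox7a1, the heart and skeletal muscle form of subunit VIIa (chr7:30184144-30186078, plus strand), had the largest fitted difference of all members. It was at 12.2, 7.70, 2.41 and 3.59 FPKM in cKO 1 to 4 and 3.30, 1.52, 2.58 and 2.25 FPKM in WT 1 to 4. Only cKO 1 and cKO 2, the libraries with the highest epithelial marker means, stood clearly above WT, while cKO 3 lay inside the WT range. The difference was 0.96 (SE 0.38, adjusted p = 0.897 in limma). It was 0.62 (SE 0.30) without cKO 1, 0.49 (SE 0.24) with the epithelial covariate and 0.24 (SE 0.22) without cKO 1 and cKO 2. Relative to Cox7a2, the liver and common form, Cox7a1 made up 5.84 ± 3.18% of the pair in cKO and 2.37 ± 0.825% in WT (SD, n = 4 each).

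The testis form Cox6b2 and the muscle form Cox8b were present at lower levels than their common forms and had shares that differed between groups by less than the spread. Cox6b2 made up 9.18 ± 1.27% of the Cox6b pair in cKO and 9.54 ± 0.642% in WT, and Cox8b 8.196 ± 2.55% of the Cox8 genes in cKO and 8.41 ± 2.25% in WT (SD, n = 4 each). Cox8b was at 25.5, 25.8, 28.2 and 42.5 FPKM in cKO libraries and 26.9, 22.8, 36.5 and 44.9 FPKM in WT libraries, so its range was wide in both groups. Cox4i2, the lung form that is induced by low oxygen, stood at 0.102 to 0.688 FPKM in cKO libraries and 0.357 to 0.810 FPKM in WT libraries, under the filter. Cox6a2, a muscle form, was listed at 0 except at 0.119 FPKM in WT 1. Cox7b2 was listed at 0 except at 0.472 FPKM in cKO 4, and Cox8c at 0 in all libraries. Cox7a2l, which takes part in joining complexes III and IV, averaged 73.7 ± 3.94 FPKM in cKO and 77.4 ± 4.09 FPKM in WT and was not raised in cKO 1 (71.4 FPKM).

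**Figure D5:**
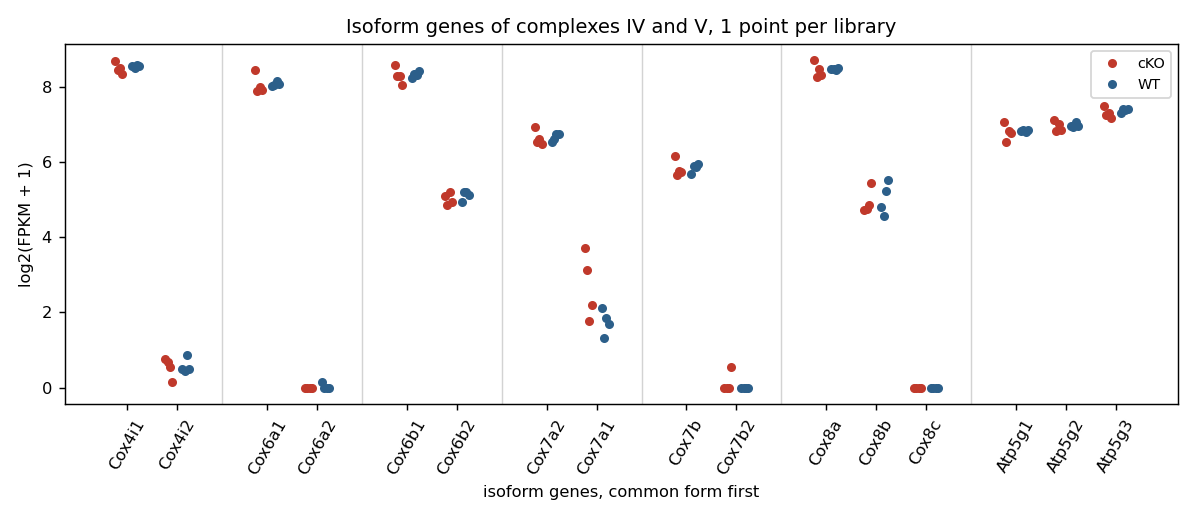
Levels of the isoform genes of complex IV and of the 3 genes for subunit c of complex V, as log2(FPKM + 1) (vertical axis), with 1 point per library, cKO in red left of WT in blue. The Cox7a1 points of cKO 1 and cKO 2, at 12.2 and 7.70 FPKM, stand above WT, and Cox4i2, Cox6a2, Cox7b2 and Cox8c lie near 0 in both groups.

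Complex V, the ATP synthase, had 5 members with a higher and 12 with a lower mean in cKO, with a median of -0.03, and without cKO 1 these counts were 2 and 15 with a median of -0.08. The catalytic head subunits Atp5a1 and Atp5b averaged 162 ± 8.01 and 341 ± 26.5 FPKM in cKO, and 166 ± 3.41 and 338 ± 4.24 FPKM in WT (SD, n = 4 each). Atp5j, coupling factor 6 of the stalk (chr16:84827866-84835625, minus strand), was at 375, 311, 364 and 339 FPKM in cKO 1 to 4 and 324, 324, 328 and 351 FPKM in WT 1 to 4. It was the most abundant member of complex V, and cKO 2 lay below and cKO 1 and 3 above the WT range (difference 0.06, SE 0.06, adjusted p = 0.948 in limma). Atp5l, subunit g of the membrane part (chr9:44912557-44920742, minus strand), was at 254, 207, 232 and 214 FPKM in cKO libraries and 230.3, 263, 246 and 268 FPKM in WT libraries. Here cKO 2 and 4 lay below the WT range. Its difference was -0.15 (SE 0.07, adjusted p = 0.897 in limma), and named pseudogenes may share its fragments. Atp5e, the epsilon subunit (chr2:174461072-174464105, minus strand), was at 244, 187, 202 and 190 FPKM in cKO libraries and 197, 237, 223 and 250 FPKM in WT libraries, with cKO 2 and 4 below the WT range (difference -0.14, SE 0.10, adjusted p = 0.924 in limma).

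Subunit c, which forms the rotating ring, is made from 3 genes with the same mature protein and different import sequences. Their shares differed between groups by less than the spread. Atp5g1 made up 28.4 ± 1.82% of the 3 in cKO and 28.0 ± 0.665% in WT, Atp5g2 31.4 ± 0.739% and 30.9 ± 1.21%, and Atp5g3 40.2 ± 1.52% and 41.1 ± 0.873% (SD, n = 4 each). Atp5g3 was at 179, 150.4, 157 and 142 FPKM in cKO 1 to 4 and 157, 168, 165 and 170 FPKM in WT 1 to 4, with a difference of -0.08 (SE 0.07, adjusted p = 0.931 in limma). Atp5s and Atp5sl, the 2 genes outside the enzyme, were low at 6.24 ± 0.192 and 5.51 ± 0.507 FPKM in cKO, and 6.33 ± 0.591 and 5.38 ± 1.199 FPKM in WT. Leaving them out gave 26 members higher and 52 lower with the same median of -0.03.

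Other genes of the pathway, taken from written lists, had no call either. Of 15 tested assembly factors of complex I, 9 had a higher and 6 a lower mean in cKO (median 0.01). The counts were 5 and 5 for complexes II and III (median 0.01), 12 and 12 for complex IV (median 0.00), and 1 and 4 for complex V (median -0.05). Mitochondrial transcription factors and coactivators had 9 higher and 5 lower (median 0.02), the citric acid cycle and pyruvate dehydrogenase 9 and 10 (median -0.01), and protein import 8 and 15 (median -0.06). Ndufaf3, an early complex I assembly factor, was at 11.0, 12.4, 10.8 and 13.1 FPKM in cKO 1 to 4 and 10.4, 9.11, 9.64 and 11.1 FPKM in WT 1 to 4, with WT 4 inside the cKO range (difference 0.21, SE 0.08). Cox16, an assembly factor of complex IV, was at 28.6, 24.6, 25.6 and 23.0 FPKM in cKO libraries and 29.8, 27.4, 32.3 and 30.7 FPKM in WT libraries, with overlap through cKO 1 (difference -0.23, SE 0.08). Atpaf2, which chaperones the ATP synthase alpha subunit, was at 12.3, 10.9, 11.3 and 11.1 FPKM in cKO libraries, all above the 8.93, 10.8, 9.89 and 9.99 FPKM of WT libraries (difference 0.19, SE 0.07). Pdhb, a pyruvate dehydrogenase subunit, was at 55.6, 53.8, 52.1 and 53.2 FPKM in cKO libraries, all below the 55.7, 61.2, 56.8 and 58.6 FPKM of WT libraries (difference -0.11, SE 0.05). Each of these 4 genes had an adjusted p of 0.897 in limma. All cKO values above all WT values, as for Atpaf2, were seen for 1.36% of all tested genes. All cKO values below all WT values, as for Pdhb, were seen for 1.9%. No other gene of the written lists had groups that did not overlap. Tfb2m, a mitochondrial transcription factor, averaged 9.39 ± 0.599 FPKM in cKO and 8.19 ± 0.409 FPKM in WT, and Tfb1m, a methyltransferase of mitochondrial ribosomal RNA, 2.96 ± 0.588 and 2.22 ± 0.345 FPKM (SD, n = 4 each).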

How the data were processed

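RNA from sorted colon stromal cells of 8 mice was turned into full-length cDNA with SMART-Seq HT and Nextera XT libraries, per the labels' protocols. The authors deposited 1 table of FPKM values per library, with 24346 symbols in each. Per the submitters' processing notes, the tools were Cufflinks 2.2.1, Cuffdiff, TopHat2 2.1.1, SAMtools 0.1.18 and Bowtie2 2.3.5.1, and the build was mm10. Not given in the sources used here are the annotation, the use of strand and any later scaling. Because FPKM is relative to the library total, a gene with a larger share lowers all others. Fragment counts were not analysed here. Relative depth was read from ratios of values under 0.3 FPKM, of which 37.7% to 42.2% lay on whole-number steps (within 0.002 in log2). Groups came from the genotype labels.

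Values were taken as log2(FPKM + 1), genes averaging 1 FPKM or more were kept, and cKO was compared with WT in limma 3.58.1 (R 4.3.3, trended eBayes, Benjamini-Hochberg over all 11506 genes, called at an adjusted p under 0.05). The procedure was tested on simulated data with noise independent between genes and with shifts larger than most member differences seen here. Smaller shifts, and shifts shared by the genes of a library, were not covered by that test. The members and lists were chosen with earlier results of these data known. Named members were, per complex, the most abundant and the 3 with the smallest unadjusted p, the extremes of the whole set, all isoform genes and all Sdh genes. Per pathway list, the rule gave the most abundant gene and those with the smallest unadjusted p. Only some of these pathway genes are described, and the choice among them followed no rule. Ndufa3, Ndufa12, Ndufv1, Ndufb5, Uqcrc1, Atp5a1, Atp5b and the genes listed as having cKO 2, 3 and 4 below WT were named after their values were seen. The values of 1 member are not reported here, and it is left out of the heat map. Alternatives were a pseudocount of 0.1, no filter or a minimum of 5 FPKM, quantile normalization, median-of-ratios scaling, a fixed FPKM sum, robust eBayes, the replicate number as a block, the epithelial marker mean as a covariate and leaving out each library. Added after the data were seen were leaving out cKO 1 and cKO 2 together, and the fixed sum or quantile normalization without cKO 1.

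Positions are from GENCODE (GRCm38, the build named mm10), in which 83 members have a position, 36 are overlapped by another gene and 28 by one on the opposite strand. Python 3.11.15, numpy 2.4.6, pandas 2.3.3 and matplotlib 3.10.9 were used for summaries, motifs and plots.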

Additional observations from a re-analysis of the deposited data

Results flagged for a closer look

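Of 72 groups of 4 libraries examined for a single library far from the others (the gap to its neighbour over the whole range, past Dixon's 95% critical value), 12 were marked, where chance marks about 1 in 20. The groups share the same libraries, and the sums contain genes that were also examined singly. They are therefore not independent, and the rate of 1 in 20 does not measure an excess here. In 7 of the marked groups cKO 1 was the high library. For these the ratio was 0.859 for Cox6a1 (349 FPKM in cKO 1, 237 to 252 FPKM in the other cKO libraries), 0.832 for Cox7b (70.2 FPKM, others 49.5 to 53.0 FPKM) and 0.991 for Sdhc (52.3 FPKM, others 39.6 to 39.8 FPKM). It was 0.864 for Sdhd (94.8 FPKM, others 81.9 to 83.6 FPKM), 0.864 for Uqcrh (204 FPKM, others 171 to 176 FPKM), 0.836 for the summed complex II genes (362 FPKM, others 330 to 335 FPKM) and 0.860 for the summed complex III genes (1547 FPKM, others 1239 to 1282 FPKM).

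Cox8b, the muscle form of subunit VIII, had a ratio of 0.841 through cKO 4 (42.5 FPKM, other cKO libraries 25.5 to 28.2 FPKM). Atp5j had a ratio of 0.846 through WT 4 (351 FPKM, other WT libraries 324 to 328 FPKM), and Cox4i2 a ratio of 0.875 through WT 3 (0.810 FPKM, others 0.357 to 0.414 FPKM). Cox6a2 in WT and Cox7b2 in cKO had ratios of 1, because a single library was above 0 (WT 1 at 0.119 FPKM and cKO 4 at 0.472 FPKM).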

How the results depend on the processing

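No member was called under any of the alternatives run, and the count of calls over all genes was 1 except in those given here. It was 4 without cKO 1 and cKO 2, 4 with the fixed sum and without cKO 1, and 4 with quantile normalization and without cKO 1. Leaving out 1 library at a time gave 1 to 4 calls over all genes, 1 to 22 members lower and 0 to 2 higher at an unadjusted p under 0.05, and medians of -0.10 to 0.00 over the members. The 22 came without cKO 1, and 1 came without cKO 4 or without WT 2. The fitted difference of Sdhd was -0.017 with the epithelial covariate and -0.023 without cKO 1 and cKO 2, in place of 0.026, and leaving out 1 library gave -0.022 to 0.048. For Sdha leaving out 1 library gave -0.014 to 0.021, with the negative values without cKO 4 or WT 3. With quantile normalization the differences of Ndufa4, Sdhc and Cox6a1 were 0.038, 0.0028 and 0.021, and with the fixed sum 0.023, 0.025 and 0.023, in place of small negative values. For Ndufa4 the fixed sum and quantile normalization without cKO 1 gave 0.022 and 0.040. Leaving out 1 library gave -0.057 to 0.018 for Ndufa4, -0.11 to 0.032 for Sdhc and -0.14 to 0.044 for Cox6a1. The cause was not tested. No other of the 38 genes refitted singly under these alternatives reversed, and these include each gene whose fitted difference is printed. Of all 80 tested members 18 changed sign without cKO 1, among them Uqcrb, Atp5b, Atp5s and Atp5sl.

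Same-numbered libraries of cKO and WT had weak correlations of 0.018 to 0.091, all above 0, and other pairs ran from -0.12 to 0.13. Not every library correlated best with its own number. Values this weak cannot tell whether same-numbered mice were handled together, and the main fit used no pairing. With the replicate block, 1 gene and 0 members were called, and at an unadjusted p under 0.05 there were 2 members higher and 4 lower, with a median of -0.03. The share of all tested genes at that unadjusted p is not given here for the block fit.

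With 4 mice a group and counts not analysed here, differences of the size seen in single members could not be told from the spread between mice. The floor of detection is unknown, so values listed at 0 are not shown to be absent.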

Other observations

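Ndufs5, an accessory subunit of complex I at the face of the intermembrane space, varied more between mice than any other complex I gene (SD 0.459 on the log2 scale). It was at 33.5, 31.9, 62.3 and 41.8 FPKM in cKO 1 to 4 and 22.2, 36.4, 56.4 and 35.6 FPKM in WT 1 to 4. High and low libraries occurred in both groups, and cKO 1 lay below cKO 3 and WT 3.

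Among genes close to the complexes but outside the symbol rule, Cyc1, Cycs, Usmg5, 2010107E04Rik and AA467197 had their highest value in cKO 1. Ndufa4l2 and Higd1b did not, and Cyct was listed at 0 in all libraries. Cyc1, the cytochrome c1 subunit, was at 74.9, 59.9, 59.9 and 64.7 FPKM in cKO 1 to 4 and 67.1, 65.1, 66.7 and 63.5 FPKM in WT 1 to 4, and Cycs, cytochrome c, at 60.7, 48.04, 47.9 and 46.9 FPKM in cKO libraries and 46.6, 51.3, 45.4 and 52.4 FPKM in WT libraries. Usmg5, a small ATP synthase subunit, was at 477, 366, 353 and 328 FPKM in cKO libraries and 391.7, 403, 376 and 446 FPKM in WT libraries. AA467197, whose product is related to Ndufa4, was at 13.4, 5.78, 4.87 and 1.96 FPKM in cKO libraries and 3.10, 2.85, 1.82 and 3.87 FPKM in WT libraries, in the same order of cKO libraries as the epithelial markers (difference 0.74, SE 0.40, adjusted p = 0.897 in limma). Ndufa4l2, another relative of Ndufa4, averaged 5.81 ± 0.721 FPKM in cKO and 5.64 ± 1.90 FPKM in WT (SD, n = 4 each).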
